A study of Mus musculus with 12 samples.

Results

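The mRNA content of newly formed plasmablasts was compared, gene by gene and in molecules per cell, with that of B cells that had not divided. Of the 21671 genes with a symbol in the deposited table, 8573 stood at 1 or more mRNA per cell in both libraries of at least one of the 2 groups, and these are the genes described here. Of them, 4908 reached 1 mRNA per cell in both groups, 3439 in the plasmablasts alone and 226 in the undivided cells alone. The series followed mouse splenic B cells (B220+ CD43-) through successive divisions, with RNA from 12 libraries in 6 sorted groups. Donor B cells from naive mice carried a division dye, CFSE or CTV, and were placed in uMT mice, which lack B cells of their own, 1 night before LPS was given. All groups therefore share the transfer, the uMT host and the LPS, and cells were sorted from spleen on day 3. The Div0 group had not divided. The plasmablast group, Div8pos, had divided 8 or more times and carried CD138, the protein made from Sdc1. The labels give female mice, 8 weeks of age, strain B6.SJL-Ptprca Pepcb/BoyJ, whereas the design text names C57/BL6J for the donors. Each group had 1 library from host 196 and 1 from host 197, so n = 2 throughout and each difference was taken within a host.

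A plasmablast is a B cell that has begun to secrete antibody while still dividing. The change from B cell to secretory cell is run by the transcription factors IRF4, Blimp-1 (made from Prdm1) and XBP1, while PAX5 and BACH2 hold the B cell state. Antibody chains are threaded into the endoplasmic reticulum (ER), folded there by chaperones such as BiP (made from Hspa5) and GRP94 (made from Hsp90b1), and sent on through the Golgi, so the secretory machinery makes up much of what such a cell builds.

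The promoters below belong to genes at both ends of the comparison and are shown because they carry short motifs that were counted across the groups of genes. The first set are the 3 ER chaperone genes among the 10 largest gains per cell. Each sequence is the 250 bases before the RefSeq start site on the gene's strand, from RefSeq on GRCm38.p6, and capitals mark the ER stress response element, searched as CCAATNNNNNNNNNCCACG on both strands. Hsp90b1 (chr10:86705445-86705694, minus strand) held 2 matches, Calr (chr8:84846932-84847181, minus strand) held 1, and Hspa5 (chr2:34771840-34772089, plus strand) held 1.
Hsp90b1: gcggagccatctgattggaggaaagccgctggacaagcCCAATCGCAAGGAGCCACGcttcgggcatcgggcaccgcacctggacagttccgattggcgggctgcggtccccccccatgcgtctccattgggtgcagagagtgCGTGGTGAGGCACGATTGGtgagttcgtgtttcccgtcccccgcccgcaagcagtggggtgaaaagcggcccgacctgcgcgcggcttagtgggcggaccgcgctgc
Calr: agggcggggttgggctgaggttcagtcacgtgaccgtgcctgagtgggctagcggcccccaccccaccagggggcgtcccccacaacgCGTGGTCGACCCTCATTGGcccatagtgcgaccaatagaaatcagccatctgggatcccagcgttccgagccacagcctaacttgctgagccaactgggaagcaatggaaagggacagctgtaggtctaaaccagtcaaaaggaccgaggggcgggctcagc
Hspa5: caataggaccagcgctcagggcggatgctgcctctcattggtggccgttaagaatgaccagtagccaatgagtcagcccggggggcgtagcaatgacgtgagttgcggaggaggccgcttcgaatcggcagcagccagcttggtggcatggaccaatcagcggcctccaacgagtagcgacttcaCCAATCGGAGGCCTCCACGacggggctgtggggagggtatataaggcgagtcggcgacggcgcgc

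The element was present in the same window of 35 of 27025 genes of the RefSeq table (0.130%). It was found in 8 of 29 genes of the ER chaperone list with an entry there (27.6%) and in 13 of 6909 of the genes described here with an entry (0.188%). All 13 were called higher per cell, as were 6365 of the 6909, and it was in 0 of 276 genes called lower. At a rate of 0.188%, these counts cannot show a link between the element and the direction of change. Besides the 3 above, the carriers with the largest gains were Creld2, Pdia6 and Canx, 3 further ER folding genes. None of the 31 translocation genes, 42 vesicle traffic genes or 61 ribosomal protein genes with an entry held these letters.

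Cd37 (chr7:45238840-45239089, minus strand) and Cd72 (chr4:43454627-43454876, minus strand) are B cell surface genes among the 15 with the largest losses. In their promoters, capitals mark the letters GAGGAAGT, a core bound by the ETS factor PU.1, here on the opposite strand in both.
Cd37: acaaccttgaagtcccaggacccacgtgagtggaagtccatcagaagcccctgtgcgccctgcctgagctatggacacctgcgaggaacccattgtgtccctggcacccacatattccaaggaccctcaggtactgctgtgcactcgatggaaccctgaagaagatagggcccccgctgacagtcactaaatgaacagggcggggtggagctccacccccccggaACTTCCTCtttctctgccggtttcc
Cd72: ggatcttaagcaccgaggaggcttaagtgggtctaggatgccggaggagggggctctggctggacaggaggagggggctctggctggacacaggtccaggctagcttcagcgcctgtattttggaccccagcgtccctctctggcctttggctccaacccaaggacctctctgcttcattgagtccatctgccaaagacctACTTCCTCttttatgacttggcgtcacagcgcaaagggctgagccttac

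These letters stood in 755 of 27025 promoters (2.79%), in 20 of 276 genes called lower (7.25%) and in 180 of 6365 genes called higher (2.83%). The 20 include near copies that are not separate cases: Bcl2a1a, Bcl2a1b and Bcl2a1d, and Trim12a and Trim12c. A link between these letters and the direction of change was not tested. Both motifs were chosen after the gene values were known, and a match describes letters, not a bound site.

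The number of mRNAs per cell is the deposited FPKM value times 1 factor per library, set from ERCC spike-in RNA added to 40000 sorted cells. It rests on the sorted cell number, so fewer cells and less RNA per cell cannot be told apart. The 4 libraries held 11541406 to 13226526 gene counts. Spike-ins took 2.71 and 2.27% of the Div0 libraries and 0.473 and 0.505% of the Div8pos libraries, with 683173 and 495636 spike-in counts against 113723 and 115237. Reads outside genes and spike-ins took 45.0 and 44.8% of the Div0 and 44.4 and 47.7% of the Div8pos libraries. Igj was the 1 antibody gene with a value. Antibody heavy and light chain genes were not analysed here, so every total, share, gain and ranking below leaves them out. Genes at the threshold were Satb1 and Abtb1 just inside, with deciding levels of 1.0001 and 1.0002, and Usp44 and AW011738 just outside, at 0.99997 and 0.99924.

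The markers of the groups followed the sort. Sdc1 stood at 0.0737 and 0.165 mRNAs per cell in the Div0 libraries of hosts 196 and 197 and at 43.4 and 36.0 in the Div8pos libraries. Prdm1 went from 0.0637 and 0.133 to 24.3 and 21.0, and Irf4 from 4.22 and 4.95 to 104 and 88.7. Xbp1, which drives the secretory genes, went from 4.61 and 6.10 to 369 and 314. Igj, the J chain that joins antibody units, went from 0.750 and 1.83 to 293 and 299. All 5 genes were far apart between groups, with no overlap, as were 85.6% of all genes tested, higher in both Div8pos libraries than in both Div0 libraries. Tnfrsf17, which encodes the receptor BCMA, was at 0.00677 and 0 in Div0 and at 5.60 and 3.74 in Div8pos, and Slamf7 was at 0.805 and 0.888 against 25.0 and 24.6. The gene list of plasma cell genes, 23 tested, was called higher per cell at all 23. Relative to the bulk of genes (defined below), 21 were higher and 2 lower.

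Cd79a and Cd79b, the signalling chains of the antigen receptor, were abundant in both groups. Cd79a stood at 73.1 and 92.3 mRNAs per cell in Div0 and at 91.3 and 82.4 in Div8pos, and Cd79b at 60.1 and 73.5 against 75.7 and 60.4. The groups overlapped for both genes, and neither passed the test (log2 difference 0.08 ± 0.24 SE, adjusted p = 0.753, and 0.03 ± 0.23 SE, adjusted p = 0.919, limma). Their sign turned when a host 196 library was left out, to -0.03 without Div0 and -0.10 without Div8pos for Cd79a, and to -0.09 and -0.23 for Cd79b, and relative to the bulk of genes (defined below) it was -2.15 and -2.20.

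Markers of other cells were low. Over the T and NK list, 0 of 4 tested genes rose and 3 fell, and the summed level was 2.09 and 2.48 mRNAs per cell in Div0 and 0.877 and 1.24 in Div8pos. Cd3g had 0 counts in both Div8pos libraries, which allows up to 0.0464 mRNAs per cell. Over the myeloid list, 11 of 21 tested genes rose and 2 fell per cell, 2 were higher and 15 lower relative to the bulk, and the sum was 13.5 and 18.9 in Div0 and 49.6 and 49.0 in Div8pos, of which Cst3 held 36.4 and 34.2. Mpo had 0 counts in Div8pos (up to 0.0187 mRNAs per cell), and Lyz2 stood at 1.02 and 0.718. The erythroid and platelet sum was 9.11 and 3.33 against 3.92 and 1.99 (3 of 13 tested rose, 5 fell). The stromal and endothelial sum was 6.09 and 7.36 against 2.79 and 2.30 (2 of 5 rose, 1 fell), of which Pecam1 held 5.92 and 7.20 against 2.30 and 1.69, and Col1a1 had 0 counts in Div8pos (up to 0.0101). Their part in the results was not tested.

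The plasmablasts held more mRNA. The 8573 genes summed to 26795 and 32880 mRNAs per cell in Div0 and to 172511 and 150604 in Div8pos, that is 6.44-fold more in host 196 and 4.58-fold more in host 197 (5.51 ± 1.31, SD, n = 2). Both Div8pos libraries were well above both Div0 libraries. Over the whole table the totals were 27359 and 33513 against 173821 and 151809. An exact permutation test of 2 against 2 libraries, two-sided and without pairing by host, gave p = 0.333, the smallest this unpaired test allows. The number added was 145716 molecules in host 196 and 117724 in host 197.

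**Figure D1:**
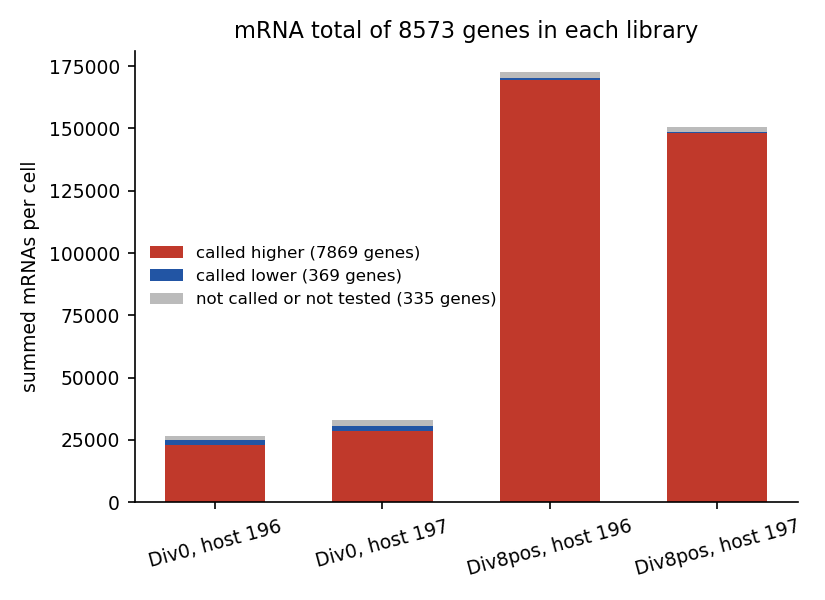
Summed mRNAs per cell (vertical axis, from 0) of the 8573 genes in each of the 4 libraries, split by whether the gene was called higher, called lower or neither. The Div8pos bars reach 172511 and 150604 and the Div0 bars 26795 and 32880. The genes called lower form a thin band in Div0 and a thinner one in Div8pos.

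Most genes rose in number. Calls were made by limma on log2(mRNAs per cell + 0.1) with host as a block. Of the 8573 genes, 7869 were called higher in Div8pos, 369 lower and 322 neither, and 13 small RNA genes were not tested. Of the 7869, 3402 entered through Div8pos alone, which favours rises. Among the 4908 genes that reached the threshold in both groups, 4467 were called higher, 157 lower and 284 were not called. Over all 12026 genes tested, 89.6% were called, 82.7% higher and 6.89% lower, so a gene's being called higher says little about that gene. The median log2 difference over all genes tested was 1.84. On each gene's own residual spread, a setting added after the values were seen, 7810 of the 7869 and 342 of the 369 passed. When edgeR's quasi-likelihood test was run on counts with TMM factors, which compare each gene with the bulk of genes, 4911 of the 12026 were higher (40.8%) and 5167 lower (43%), with a median of -0.04. Of the 7869 genes higher per cell, 4279 were also higher relative to the bulk, 2550 were lower relative to it and 1040 were not called. All 369 genes lower per cell had a negative log2 difference relative to the bulk, which follows from the rise of the bulk itself per cell.

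The standard error of the log2 difference was 0.133 to 0.250 over genes, because limma here shared 1 spread across genes of like level. Each library's spike-in factor moves all its genes together, so the genes' differences are not independent of one another. For that reason sizes are given below with both hosts' values, and adjusted p only near the threshold.

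**Figure D2:**
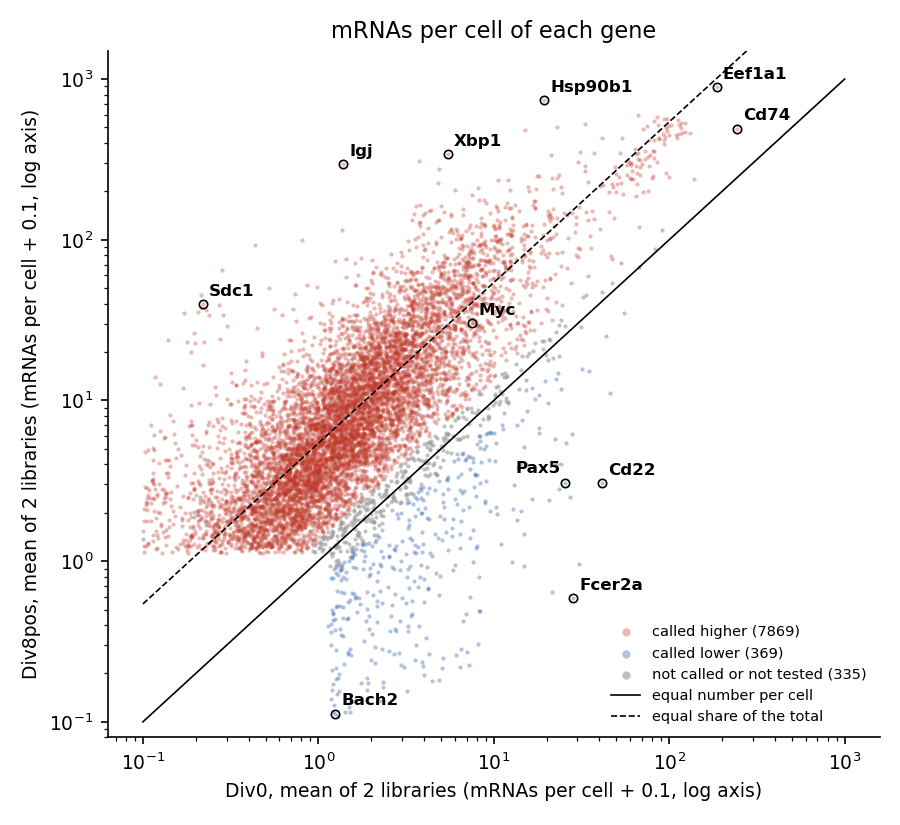
Mean mRNAs per cell of each of the 8573 genes in Div0 (horizontal) and Div8pos (vertical), each plus 0.1 and on a log axis, n = 2 libraries a group. The solid line marks equal numbers and the dashed line an equal share of the total. Most genes lie above the solid line and spread on both sides of the dashed one, and the 369 blue points lie under the solid line.

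Among the genes described here, without antibody heavy and light chains, the added molecules were spread over many genes. The 10 genes with the largest mean gain supplied 3.84 and 4.12% of the summed gains in hosts 196 and 197 (3.98 ± 0.20, SD, n = 2), and the 100 largest supplied 22.9% in both. The first 500 supplied 49.2 and 49.6%. It took 520 and 510 genes, ranked within each host, to reach 50% of the gains and 3552 and 3468 to reach 90%. Genes already at 1 or more mRNA per cell in Div0 as well as in Div8pos supplied 88.9 ± 0.4% of the gains (SD, n = 2), and the 3439 that reached this level in Div8pos alone supplied 11.1 ± 0.4%. By level in Div0, the 457 genes with a mean of 10 or more supplied 35.5%, the 4971 at 1 to 10 supplied 55.3%, and the 3145 below 1 supplied 9.20%.

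**Figure D3:**
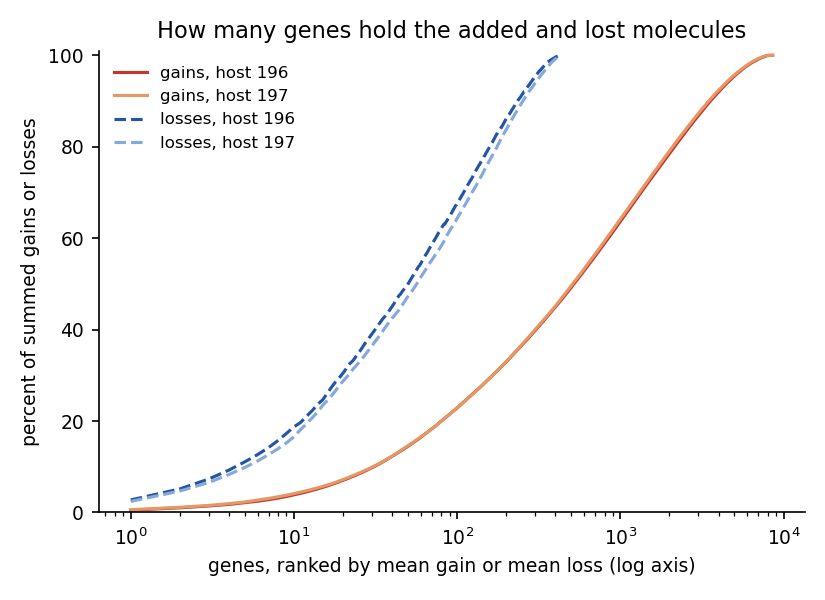
Cumulative percent of summed gains (solid) and summed losses (dashed) in mRNAs per cell against the number of genes, ranked by mean gain or mean loss on a log axis, 1 line a host. The gain lines of both hosts lie on each other and pass 22.9% at 100 genes. The loss lines end at the 432 genes lower in both hosts.

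Among the genes described here, the largest single gain, as the mean of both hosts, was Hsp90b1. This gene encodes the ER member of the HSP90 family, and its promoter is printed above. It stood at 15.8 and 22.7 mRNAs per cell in Div0 and at 732 and 739 in Div8pos, a gain of 716 and 717. The next, Eef1a1, the elongation factor that brings tRNA to the ribosome, gained 779 and 631, from 164 and 209 to 942 and 840, and was the larger in host 196. These 2 genes gained a like number of molecules from unlike starting levels, a 38.3-fold against a 4.78-fold ratio of means. Relative to the bulk of genes, Hsp90b1 was higher (log2 3.05) and Eef1a1 was not called (log2 0.04, adjusted p = 0.502, edgeR).

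Of the 15 largest gains, 3 were ER chaperones or lectins, 1 was an ER helper of antibody assembly, and 7 were cytosolic ribosomal proteins. Calr, a chaperone that binds sugar chains, went from 27.6 and 38.1 to 540 and 518 mRNAs per cell, and Hspa5 from 19.1 and 26.6 to 485 and 528. Mzb1, which helps antibody assembly in the ER, went from 13.0 and 17.0 to 516 and 448. All 3 were separated between groups by an order of magnitude. Ptma, a small acidic nuclear protein, went from 56.7 and 75.1 to 639 and 552. Among the ribosomal proteins, Rps2, Rpl41, Rpl10, Rplp0, Rpl28, Rpl7a and Rplp1 had mean gains from 416 (Rplp1) to 496 (Rps2). Their ratios of means were 4.57 to 6.80, around the ratio of the totals. Relative to the bulk, Rplp1 (log2 -0.03, adjusted p = 0.646) and Rpl28 (log2 0.09, adjusted p = 0.0957, edgeR) were not called, and the others were called higher. The last of the 15 were the folding enzyme Ppia, at 65.5 and 82.9 against 541 and 477, and the cytosolic chaperone Hsp90ab1, at 60.5 and 81.1 against 534 and 448. Ribosomal protein genes, Eef1a1, Ptma and Ppia have many processed pseudogenes, so their counts are uncertain where reads could be split. The 100 largest gains had a median exon length of 952 bases against 3146 for all 8573 genes, and a per-length value weighs a read of a short gene more.

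Ranked by the fitted difference in log2(value + 0.1), which understates folds from levels near 0, the 8 largest rises among genes at 10 or more mRNAs per cell in both Div8pos libraries were Gm6455, Igj, Fam46c, Fkbp11, Rgcc, Sdc1, Speer1-ps1 and Bhlha15. Each stood under 2 mRNAs per cell in Div0, and all 8 entered through Div8pos alone, which favours larger rises. Fkbp11, a prolyl isomerase of the secretory pathway, went from 0.0801 and 0.151 to 46.4 and 44.6. Bhlha15, the secretory cell transcription factor MIST1, went from 0.0739 and 0.153 to 39.6 and 35.1. Fam46c, a poly(A) polymerase of plasma cells, went from 0.227 and 0.441 to 97.4 and 87.1, and Rgcc from 0.0301 and 0.115 to 39.1 and 30.8. Their sizes in molecules were modest: Fam46c, a 276-fold ratio of means, gained 91.9 ± 7.5 molecules, and Eef1a1 gained 705 ± 104 (SD, n = 2). Gm6455 and Speer1-ps1 may share reads with near copies and are uncertain.

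The secretory pathway took a larger part of the total at each of its steps. The gene lists here do not share genes, and the shares are percents of the summed mRNAs per cell of the 8573 genes. ER chaperones and disulfide isomerases were called higher at 36 of 36 tested, with 177 and 236 mRNAs per cell in Div0 and 5211 and 5115 in Div8pos. Their share went from 0.659 and 0.719% to 3.02 and 3.40%, a change of 2.52 ± 0.22 percentage points (SD, n = 2). This was the largest share gain of the lists. The genes for translocation into the ER and glycan transfer were higher at 44 of 44, 24.2 and 17.6-fold in sum, and their share went from 0.489 and 0.505% to 1.84 and 1.94%. Ssr2, a subunit of the translocon-associated complex, went from 4.02 and 5.45 to 236 and 214 mRNAs per cell. Sec61b, part of the channel itself, went from 6.14 and 8.78 to 200 and 179, and Sec11c, of the signal peptidase, from 9.08 and 11.9 to 239 and 230.

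Genes of ER-associated degradation and the unfolded protein response were higher at 34 of 34, in sum 18.6 and 14.1-fold. Herpud1, an ER quality control gene, went from 6.20 and 7.51 to 105 and 122 mRNAs per cell. Vcp, the ATPase that pulls proteins out of the ER, went from 9.88 and 13.1 to 168 and 152. The smallest rises in the list were in genes of the stress arm that ends in CHOP: Ddit3, which encodes CHOP, went from 1.59 and 1.99 to 5.15 and 8.42, and Ppp1r15a, which encodes GADD34, from 4.10 and 5.85 to 15.5 and 14.0. Both rose per cell but had negative values relative to the bulk (log2 -0.30, adjusted p = 0.0551, and -0.64, edgeR). Vesicle coat and Golgi traffic genes were higher at 49 of 50, in sum 16.5 and 12.2-fold, led by Tmed2 (4.82 and 6.42 to 150 and 139) and Surf4 (4.11 and 5.07 to 136 and 121). The exception was Use1, at 6.32 and 7.52 against 9.41 and 8.03 (log2 0.33 ± 0.22 SE, adjusted p = 0.142, limma), called higher without the Div8pos library of host 197 (adjusted p = 0.0431) and negative relative to the bulk (log2 -1.89). Relative to the bulk, 35 of 36, 42 of 44, 31 of 34 and 46 of 50 genes of these 4 lists were called higher.

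**Figure D4:**
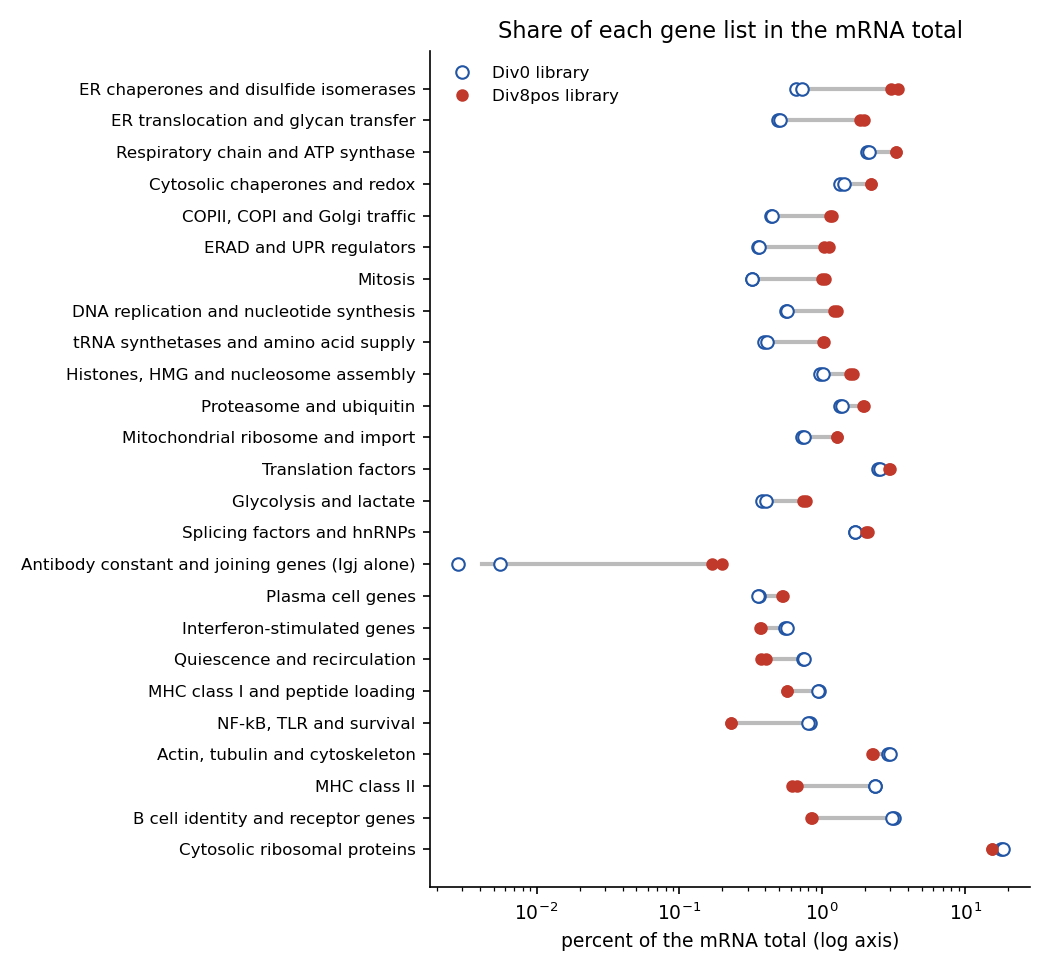
Percent of the mRNA total (log axis) held by each gene list in each Div0 library (open circles) and each Div8pos library (filled), ordered by the change in share. The ER chaperone list stands at the top, with 0.659 and 0.719% against 3.02 and 3.40%, and the ribosomal protein list at the bottom.

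Of the gene lists, which hold no antibody heavy or light chain values, ribosomal protein mRNA added the most molecules, although its share went down. Cytosolic ribosomal protein genes were higher per cell at 82 of 82, with 4752 and 6007 mRNAs per cell in Div0 and 26617 and 23078 in Div8pos. They supplied 14.8% of the net gain, as the mean of both hosts. Their share went from 17.7 and 18.3% to 15.4 and 15.3%, a change of -2.63 ± 0.45 points (SD, n = 2), which was -0.50 in counts per spike-in count without length scaling. Relative to the bulk, 22 of the 82 were called higher and 31 lower. The smallest rises in the list were Fau, at 67.5 and 84.3 against 223 and 180, and Rps27, at 62.8 and 79.2 against 212 and 185, both higher per cell and lower relative to the bulk (log2 -0.82 and -0.74).

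Genes that feed translation rose with larger ratios. Genes of tRNA charging and amino acid supply were higher at 38 of 38, in sum 16.8 and 11.4-fold, and all 38 were also higher relative to the bulk. Phgdh, which opens serine synthesis, went from 4.59 and 6.63 to 154 and 128 mRNAs per cell. Shmt2, which takes serine into mitochondrial one-carbon units, went from 4.90 and 6.62 to 119 and 103, and Nars, the asparagine tRNA synthetase, from 3.46 and 4.77 to 102 and 89.8. Translation factors were higher per cell at 44 of 45, and relative to the bulk 37 were higher and 4 lower. Nacad, named after its values were seen, was lower per cell, at 0.0797 and 0.132 against 0.0458 and 0.0320.

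Energy genes rose too. Respiratory chain and ATP synthase genes were higher at 80 of 80, with 552 and 700 mRNAs per cell in Div0 and 5648 and 4962 in Div8pos. Their share went from 2.06 and 2.13% to 3.27 and 3.29%, and relative to the bulk 76 were higher and 2 lower. Atp5b, the catalytic subunit of ATP synthase, went from 26.4 and 34.1 to 333 and 281. Cox7a2l had the smallest rise, from 14.6 and 17.7 to 39.4 and 32.1, and was lower relative to the bulk (log2 -1.08). Of the glycolysis genes, 19 of 22 were higher per cell, near the 82.7% of all genes tested, and relative to the bulk 13 were higher and 6 lower. The 1 lower per cell was Aldoc, named after its values were seen, at 0.576 and 0.637 against 0.147 and 0.341. Pkm, pyruvate kinase, went from 13.6 and 17.9 to 218 and 182, and Ldha, lactate dehydrogenase, from 14.3 and 19.4 to 193 and 157.

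Proliferation genes were higher at 58 of 58 for DNA replication and nucleotide synthesis, 75 of 75 for mitosis and 30 of 30 for histones and nucleosome assembly. The replication list does not hold Pold4, a DNA polymerase delta subunit that was called lower (given below). Rrm2, of the enzyme that makes deoxynucleotides, went from 3.23 and 4.46 to 155 and 129 mRNAs per cell. Pcna, the replication clamp, went from 11.2 and 13.8 to 170 and 143, and Mki67, the proliferation antigen, from 3.51 and 4.14 to 102 and 84.4. These lists were also mostly higher relative to the bulk, at 56 of 58, 73 of 75 and 26 of 30. Myc, a growth regulator, went from 6.20 and 8.62 to 32.2 and 28.3 per cell, and was slightly lower relative to the bulk (log2 -0.18, adjusted p = 0.0218, edgeR).

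In sum, cytoskeleton genes rose less than the total. They were higher per cell at 30 of 31, relative to the bulk 15 were higher and 16 lower, and their share went from 2.90 and 2.97% to 2.26 and 2.22%. Actb, beta-actin, went from 115 and 147 to 496 and 432 mRNAs per cell (log2 -0.39 relative to the bulk). Tuba1b, an alpha-tubulin, went from 32.3 and 41.8 to 375 and 318 (log2 1.01 relative to the bulk). Coro1a, a leukocyte actin regulator, went from 61.2 and 73.8 to 134 and 105 (log2 0.82 ± 0.24 SE), a call lost when the 4 libraries were fitted alone (adjusted p = 0.132, limma). Lsp1 was the 1 gene called lower, at 7.93 and 9.94 against 7.01 and 5.10 (log2 -0.56 ± 0.22 SE, adjusted p = 0.0119, limma), and its call was lost without either host 197 library (adjusted p = 0.190 without Div0 and 0.360 without Div8pos).

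Against this general rise, 432 genes were lower in both hosts. Their sum fell by 1253 mRNAs per cell in host 196 and fell by 1744 in host 197, which is 0.853 and 1.46% of the summed gains. They held 8.65 and 8.16% of the Div0 total and 0.618 and 0.623% of the Div8pos total. The 369 called lower summed to 2034 and 2350 mRNAs per cell in Div0 and to 799 and 690 in Div8pos. Their median ratio of means was 3.22-fold lower, 68 were lower by 10-fold or more, and 112 by less than 2-fold. Of them, 32 lost 10 or more molecules per cell, and 74 lost less than 1. Of the 369, 212 entered through Div0 alone, which favours larger falls, and 157 reached 1 mRNA per cell in both groups. The first 10 of the 432 genes held 18.7 and 16.5% of their loss and the first 50 held 50.0 and 47.3%. By list, 24 of the 369 were B cell identity genes and 16 were of the NF-kB, Toll-like receptor and survival list. A further 11 were of the quiescence and recirculation list, 4 of MHC class II and 4 of the interferon-stimulated list. The cytoskeleton list held 1, and the T and NK, myeloid, erythroid and platelet, and stromal and endothelial lists held 1 each. The remaining 305 were in no list.

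The largest loss was Cd22, an inhibitory co-receptor of the B cell receptor, at 37.7 and 44.5 mRNAs per cell in Div0 and 3.44 and 2.46 in Div8pos (log2 -3.77 ± 0.23 SE). Cd37, a tetraspanin, went from 42.7 and 49.2 to 12.5 and 9.62. Spib, an ETS factor of B cells, went from 28.0 and 33.3 to 0.977 and 0.754. The groups did not overlap for any of the 3, against 8.56% of all genes tested that were lower without overlap. Fcer2a, the low-affinity IgE receptor CD23, went from 25.3 and 31.0 to 0.559 and 0.416, a 57.7-fold fall in means. Faim3, the IgM Fc receptor, went from 24.9 and 29.3 to 2.30 and 2.50, and Pax5 from 23.3 and 27.7 to 3.18 and 2.75. Cd72 and Siglecg, both inhibitory receptors, went from 22.2 and 25.0 to 2.96 and 2.50 and from 23.7 and 27.8 to 5.83 and 4.87. These receptor and regulator genes all lay well under their Div0 levels in both hosts.

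The other large losses included genes outside the B cell list. Pold4, a small subunit of DNA polymerase delta, went from 25.9 and 29.9 to 6.59 and 5.61 mRNAs per cell. The 58 tested genes of the DNA replication list, which does not hold Pold4, were all called higher. Cfp, properdin of the complement system, went from 22.5 and 25.5 to 4.73 and 3.11. Ptpn6, the phosphatase SHP-1 that acts under inhibitory receptors, went from 31.7 and 37.5 to 16.2 and 14.0. A smaller fall was that of the B cell marker Ms4a1, the gene of CD20, from 16.2 and 18.1 to 10.9 and 9.47 (log2 -0.75 ± 0.22 SE). Its call was lost with the 4 libraries alone (adjusted p = 0.117, limma).

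Ranked by the fitted difference in log2(value + 0.1), the 8 largest falls among genes at 1 or more mRNA per cell in both Div0 libraries were Fcer2a, H2-Oa, Rasgef1b, Spib, Ffar2, Ms4a4c, Tlr9 and Ell3. All 8 entered through Div0 alone, which favours larger falls. Tlr9, the receptor for unmethylated DNA, went from 7.52 and 8.63 to 0.212 and 0.199. Ell3, an elongation factor of B cells, went from 6.40 and 7.40 to 0.0993 and 0.243. Rasgef1b went from 6.84 and 7.47 to 0.149 and 0.104, Ffar2, a short-chain fatty acid receptor, from 5.79 and 6.80 to 0.159 and 0.0776, and Ms4a4c from 4.35 and 5.25 to 0.0372 and 0.127. Bach2, at 1.09 and 1.21 against 0.00944 and 0.0154, had a ratio of means 92.5-fold lower, more than any of these 8. Its log2 difference of -3.47 ± 0.21 SE on the log2(value + 0.1) scale understates this, since its Div8pos level lies under 0.1.

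The B cell identity list split in both directions per cell. Of 51 tested genes, 24 were called lower and 21 higher, and the median log2 difference was -0.19 against 1.84 over all genes. Its share of the total went from 3.19 and 3.09% to 0.828 and 0.848%, while its sum in molecules was 855 and 1017 against 1429 and 1276. The rise in the sum came from a few genes: Cd24a, a surface glycoprotein, went from 16.1 and 18.9 to 260 and 239. Cd52, another small surface glycoprotein, went from 70.5 and 88.3 to 245 and 240, and Blnk, an adaptor of receptor signalling, from 18.8 and 23.1 to 109 and 94.6. Relative to the bulk, 46 of the 51 were called lower and 4 higher, and Cd52 turned (log2 -0.61) while Blnk was not called (log2 0.06, adjusted p = 0.239, edgeR). Pou2af1, the B cell co-activator in the plasma cell list, went from 21.0 and 24.8 to 257 and 227, and Ly6d from 58.4 and 71.2 to 204 and 169 (log2 -0.71 relative to the bulk).

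Antigen presentation genes divided by class. Of 11 tested MHC class II genes, 4 were lower, 3 higher and 4 not called per cell. Their sum rose from 626 and 767 mRNAs per cell to 1150 and 931, while their share went from 2.34 and 2.33% to 0.667 and 0.618%. Both chains of the peptide-editing inhibitor H2-O fell: H2-Oa went from 19.9 and 22.7 mRNAs per cell to 0.527 and 0.565, and H2-Ob from 20.8 and 24.9 to 4.08 and 3.73. H2-DMb2, of the editor itself, went from 39.5 and 47.6 to 27.6 and 22.8 (log2 -0.79 ± 0.23 SE), a call lost with the 4 libraries alone (adjusted p = 0.130, limma). The fourth was its near copy H2-DMb1, named after its values were seen, at 21.9 and 26.1 against 14.0 and 9.32. The invariant chain Cd74 was instead called higher, at 215 and 270 against 537 and 444, as was H2-Ab1, at 124 and 153 against 265 and 211. Both calls were lost with the 4 libraries alone (adjusted p = 0.0660 and 0.162, limma), and that of H2-Ab1 also without either host 196 library (adjusted p = 0.0541 without Div0 and 0.0677 without Div8pos). All 11 genes were called lower relative to the bulk, Cd74 by a log2 of -1.21 and H2-Ab1 of -1.45. MHC class I and peptide loading genes were higher per cell at 15 of 15 and lower relative to the bulk at 12 of 15: H2-D1 went from 61.1 and 75.6 to 272 and 236 (log2 -0.33 relative to the bulk), H2-K1 from 71.4 and 89.2 to 265 and 231 (-0.60) and B2m from 23.3 and 29.5 to 108 and 96.9 (-0.27). MHC genes are near copies of one another, so their counts are uncertain.

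Signalling lists were mixed per cell, and mostly lower relative to the bulk. In the quiescence and recirculation list 30 of 42 tested genes were higher and 12 lower, against 11 higher and 27 lower relative to the bulk. The highest gains there were the immediate early genes Fos (5.07 and 7.46 to 89.9 and 86.4), Jun (6.61 and 9.52 to 67.2 and 73.5) and Jund (6.99 and 9.59 to 64.8 and 64.9), which do not act for quiescence alone. The homing receptor Ccr6 went from 14.4 and 15.1 to 0.985 and 0.678, and the growth inhibitor Btg1 from 9.86 and 11.9 to 1.24 and 1.12. In the NF-kB, Toll-like receptor and survival list 21 of 46 were higher and 17 lower (7 and 38 relative to the bulk): Mcl1, a survival factor, went from 15.4 and 16.8 to 71.7 and 62.2 (log2 -0.17 relative to the bulk), and Lta, lymphotoxin alpha, from 6.41 and 6.80 to 0.394 and 0.249. Of 50 interferon-stimulated genes 20 were higher and 19 lower (5 and 42 relative to the bulk), with Ly6a (29.4 and 36.6 to 295 and 243) the largest gain and Samd9l (3.80 and 4.20 to 0.276 and 0.188) the largest fall in log2 terms among those at 1 or more mRNA per cell.

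In the other divided groups the genes called lower in Div8pos were mostly above their Div0 level, as were nearly all of the 8573 genes. The 369 genes summed to 2192 ± 223 mRNAs per cell in Div0, 3815 ± 764 in Div1, 3561 ± 381 in Div3, 4475 ± 470 in Div5, 3942 ± 114 in Div8neg and 744 ± 78 in Div8pos (SD, n = 2 each). Div8neg cells had also divided 8 or more times but lacked CD138. Group means were above Div0 for 364 of the 369 genes in Div1, 341 in Div3, 337 in Div5 and 285 in Div8neg, which is 98.6, 92.4, 91.3 and 77.2% against 99.4, 97.5, 98.9 and 98.4% of the 8573 genes. Against Div0 the sum of the 369 was 1.74-fold in Div1, 1.62-fold in Div3, 2.04-fold in Div5 and 1.80-fold in Div8neg, and the sum of all 8573 was 1.68, 1.59, 2.35 and 3.31-fold. Of the total, the 369 held 7.59 and 7.15% in Div0, 7.82 and 7.43% in Div1, 7.72 and 7.31% in Div3, 6.54 and 6.21% in Div5, 4.05 and 3.95% in Div8neg and 0.463 and 0.458% in Div8pos. Their share was thus near that of Div0 in Div1 and Div3, and under it in both libraries of Div5, Div8neg and Div8pos. Just 3 of the 369 had their highest group mean in Div0, against 121 in Div1, 1 in Div3, 154 in Div5 and 90 in Div8neg. Cd22 stood at 121 and 106 mRNAs per cell in Div5 and 96.7 and 102 in Div8neg before 3.44 and 2.46 in Div8pos. Fcer2a instead was already lower in Div8neg, at 13.4 and 10.4, after 44.2 and 61.2 in Div1. Bach2 was at 0.554 and 0.692 in Div8neg, between its Div0 and Div8pos levels. These are levels, with no test of the groups between.

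**Figure D5:**
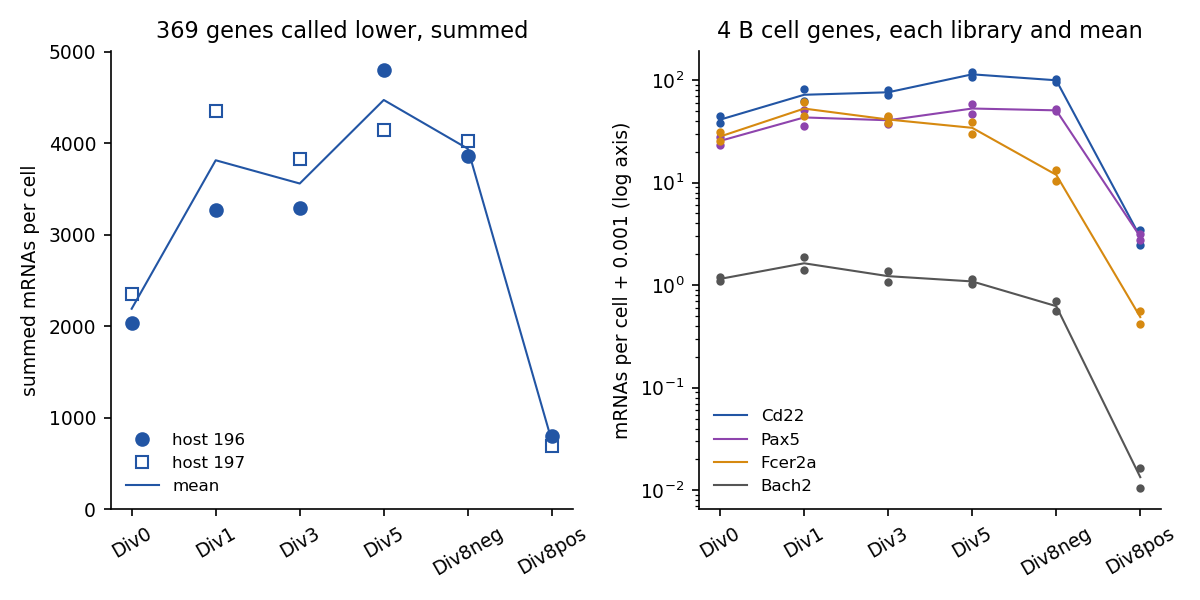
Left, the summed mRNAs per cell of the 369 genes called lower in Div8pos in each library (points) and as the mean of each group (line). Right, 4 B cell genes on a log axis, each library as a point and group means as lines, with 0.001 added. The sum is 2192 in Div0, 4475 in Div5 and 744 in Div8pos, and Fcer2a and Bach2 are lower in Div8neg than in Div0 while Cd22 and Pax5 are not.

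As a whole, 30.2 and 29.5 percentage points of the mRNA total stood in other genes in Div8pos than in Div0 of the same host, counted as the summed positive differences in share over all genes. The same measure was 2.80 points between the 2 Div0 libraries and 2.82 between the 2 Div8pos libraries, so the change in make-up was about an order of magnitude above the spread between hosts. Against Div0 it was 3.84 and 4.09 points for Div1, 5.43 and 5.67 for Div3, 8.88 and 8.70 for Div5 and 17.1 and 16.6 for Div8neg. The lists described above, with the splicing, proteasome, chaperone and mitochondrial import lists that were called higher at every tested gene, supplied 48.9% of the net gain, and genes in no list supplied 51.1%.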

How the data were processed

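Each library was made from 40000 sorted cells and sequenced in pairs of 50 bp, with ERCC RNA put in ahead of RNA extraction, per the labels' protocols. The submitters' processing notes name mm9, Picard and R 3.2.2. Which aligner or counter was used is not given in the sources used here. Deposited counts are reads over exons of UCSC mm9 genes, the authors' RPM values are counts over the library total, and the deposited FPKM values are RPM per kilobase of exon. The deposited mRNAs per cell (a unit of its own, neither count nor FPKM) equal FPKM times 1 spike-in factor per library, as checked from the values. RPM and FPKM were not tested. The labels describe no molecular tags, so PCR copies may be counted as reads.

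The members and gene lists were chosen with earlier results of these data known. Of 21761 genes, 90 without a symbol (0.0498 to 0.0943% of gene counts) were left out. mRNAs per cell were tested as log2(value + 0.1) with limma 3.58.1 (trend, all 12 libraries, group means, host as block) in R 4.3.3, for 12026 genes kept by edgeR's filterByExpr on the counts, with Benjamini-Hochberg adjustment and calls under 0.05. Counts were tested with edgeR 4.0.16 (quasi-likelihood) and DESeq2 1.42.0 as alternatives. In the text, relative to the bulk means edgeR with TMM factors. The script was tested on simulated data. Figures and sums used python 3.11.15.

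Same-numbered libraries come from the same host animal per the labels, which is why host is a block. Deviations of Div0 and Div8pos libraries from their group means correlated across 12026 genes at r = -0.07, and over all 15 pairs of groups at -0.09 to 0.54. The 2 libraries of a group differed by more than counting noise (chi-square over degrees of freedom 3.80 and 3.84). Each host's cells are 1 sample, and whether hosts received cells of different donors is not given in the sources used here, so p-values measure the spread between these libraries.

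Genes named were Sdc1, Prdm1, Irf4, Xbp1, Pax5, Bach2, Myc and Igj, the 15 largest gains and losses among those called, the 8 largest rises (at 10 or more mRNAs per cell in both Div8pos libraries) and falls by fitted log2 difference, and in each list up to 3 genes with the largest differences and up to 2 with the lowest log2 difference; 1 of these genes is not reported here. Cell type markers came from a fixed list, in which Hba-a1 had no value. Bisulfite libraries were not analysed here.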

Additional observations from a re-analysis of the deposited data

How the results depend on the processing

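Counts of genes called, 9943 higher and 828 lower over the 12026 tested, stayed within 1.5 times under every alternative run but TMM factors, which gave 4911 and 5167, so that 48.7% of calls were higher in place of 92.3%. Without the replicate block (host) they were 9917 and 800, and the block changed the call of no named gene. Leaving out 1 library gave 9584 to 10038 higher and 646 to 869 lower, where the lone library of a group is assumed to vary like the other groups. DESeq2 gave 9926 and 711 and edgeR with spike-in scaling 9984 and 754.

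The ratio of totals, 5.51, was 5.24 to 5.94 under the alternatives run on both hosts. It was 6.44 and 4.58 in the single hosts, whose mean is the main value, so these are no separate check. The share of gains from the first 10 genes (3.98%) was 4.20% for genes at 5 or more mRNAs per cell and 3.76% without length scaling. The loss, -1498 molecules, was -1068 at 5 or more mRNAs per cell, -1919 without the most abundant spike-in, and -1254 to -1872 with 1 host left out.

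Without length scaling the share change was -0.50 points for ribosomal proteins (-2.63 in the report), -2.65 for B cell identity (-2.31), -1.02 for MHC class II (-1.69), 1.27 for ER translocation (1.39) and 0.52 for the respiratory chain (1.19). At 5 or more mRNAs per cell it was -3.99, -2.61, -1.96 for the first 3 and 1.13 for the respiratory chain. Over all genes of the table MHC class II moved by -1.65. None of the 6 lists run (these and ER chaperones) turned, and the cause of these shifts was not tested.

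Of 97 named genes, 20 turned their log2 sign with TMM factors: Cd79a -2.15, Cd79b -2.20, Use1 -1.89, H2-Ab1 -1.45, Coro1a -1.41, Cd74 -1.21, Cox7a2l -1.08, Fau -0.82, Rps27 -0.74, Ly6d -0.71, Ppp1r15a -0.64, Cd52 -0.61, H2-K1 -0.60, Actb -0.39, H2-D1 -0.33, Ddit3 -0.30, B2m -0.27, Myc -0.18, Mcl1 -0.17 and Rplp1 -0.028. Cd79a and Cd79b, called in neither direction, also turned without either host 196 library, with values over the 4 left-out libraries of -0.10 to 0.26 for Cd79a and -0.23 to 0.28 for Cd79b (without Div0 replicate 196 -0.030 and -0.087), and Cd79b without the most abundant spike-in (-0.044). With the 4 libraries alone 6 named genes lost their call: Ms4a1, Coro1a, Lsp1, Cd74, H2-Ab1 and H2-DMb2.

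With 2 libraries a group, the spread between hosts is poorly known, and a shift of a library's spike-in factor moves all of its genes. Levels in the Div8pos libraries rest on fewer spike-in counts than in Div0 (113723 and 115237).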
